A study of Mus musculus with 6 samples.

Results

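The genes described here are the AP-1 and EGR immediate-early transcription factors: Fos, Fosb, Fosl2, Jun, Junb, Jund, Atf3, Egr1, Egr2 and Egr3. They are 10 of the 12393 genes measured, and 12 of the 20379 probe sets whose platform annotation names a single gene carried exactly one of these symbols. The 10 genes were chosen by their measured values in the comparison reported below, so their differences between genotypes are a description with no test. The other gene lists were chosen with earlier results of these data known, so their counts are a description as well. RNA was hybridised to MOE430A arrays of Affymetrix after CD11c+ cells, the fraction of spleen that holds dendritic cells and some macrophages, had been enriched with magnetic beads by MACS. The 3 wild-type arrays (WT1, WT2 and WT3) came from C57BL/6J mice, and the 3 hypomorph arrays (HM1, HM2 and HM3) from Atg16L1 hypomorphic mice on the same background. All mice were 8 weeks of age, and the labels record no treatment. A hypomorphic allele has reduced function, and Atg16L1 encodes a part of the enzyme complex that attaches LC3 to the growing autophagosome. The labels do not say whether each array came from its own mouse, so the p-values given for other genes measure the spread between these samples. Values are log2 expression values, and a difference is hypomorph minus wild type.

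AP-1 is a family of dimers built from basic leucine zipper (bZIP) proteins. JUN proteins pair with each other, with FOS proteins or with ATF proteins, whereas FOS proteins need a JUN partner to bind DNA. EGR proteins are zinc finger factors that bind GC-rich sites. Most genes of both families are immediate-early genes: their transcription starts within minutes of a stimulus from factors already present in the cell, and their short-lived mRNAs make them sensitive to growth factors, microbial ligands, stress and the handling of cells. In dendritic cells and macrophages they take part in the induction of cytokines, proteases and feedback regulators.

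Of the 10 genes, 8 were higher on every hypomorph array than on every wild-type array. They were Fosb (5.48-fold), Atf3 (3.46-fold), Egr2 (3.28-fold), Jun (2.88-fold), Fos (2.78-fold), Egr1 (2.55-fold), Junb (2.19-fold) and Jund (1.76-fold). Groups of arrays were separated upward in this way for 18.5% of all genes. Fosl2 was the 1 member lower on every hypomorph array, a separation seen downward for 22.5% of all genes. Egr3 overlapped between the genotypes. In a limma fit over all genes, 7 of the 10 passed a Benjamini-Hochberg adjusted p of 0.05 upward, beside 9.76% of all genes, and 0 passed downward, beside 8.47% of all genes; Jun, Fosl2 and Egr3 did not pass. By probe set, 8 of 12 passed upward, beside 9.95% of all single-gene probe sets. Nothing is read from these counts, because the same contrast chose the genes. The median difference of the 10 genes was 1.41, and that of all genes was -0.053. In bulk samples like these, fewer cells of a type and less RNA per cell cannot be told apart.

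**Figure D1:**
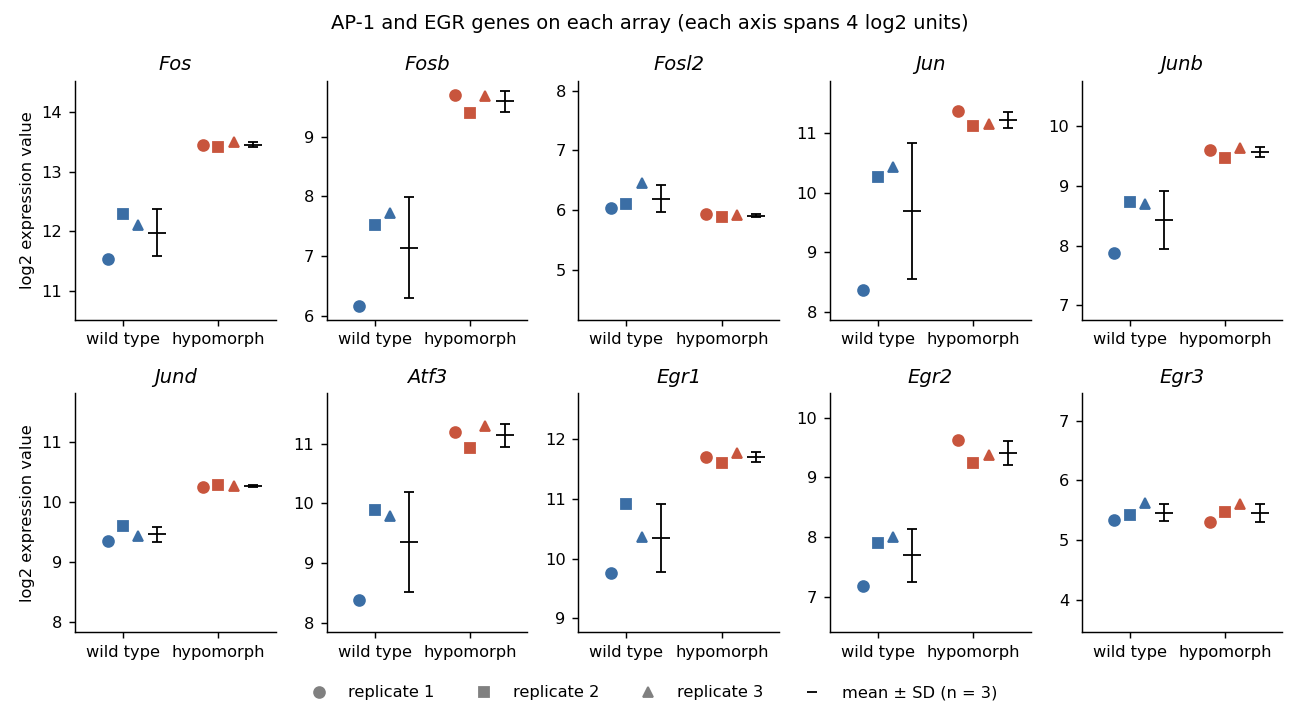
Log2 expression value (y axis, log2 units) of each of the 10 AP-1 and EGR genes on the 3 wild-type arrays (blue) and the 3 hypomorph arrays (red), with marker shape for the replicate and the bar for mean ± SD (n = 3). In 8 panels every hypomorph array lies above every wild-type array, WT1 is the lowest wild-type array in all 10, and Egr3 shows overlapping groups.

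The targeted gene, Atg16l1, averaged 7.07 ± 0.035 (SD, n = 3) in wild type and 6.03 ± 0.16 (SD, n = 3) in the hypomorph, a difference of -1.04 (SE 0.097, limma adjusted p = 0.001628). The mean of 24 poly-A spike-in probe sets, RNA added in the laboratory, was 9.96, 9.53 and 8.95 on WT1, WT2 and WT3 and 7.90, 7.58 and 7.59 on HM1, HM2 and HM3 (two-sided exact permutation p = 0.1, the smallest that 3 against 3 arrays allow). All 16 markers of the splenic macrophages of red pulp and marginal zone rose, with mean levels of 9.08 to 9.71 on wild-type arrays and 11.19 to 11.29 on hypomorph arrays. Of 10 dendritic cell markers 2 rose and 2 fell, and Itgax, the gene for CD11c, fell from 10.32 ± 0.13 to 9.94 ± 0.07 (SD, n = 3; limma adjusted p = 0.03411). Of the other markers, 3 of 5 for B cells, 2 of 5 for platelets and 2 of 6 for stroma and endothelium fell. For neutrophils 2 of 7 rose. None of 5 for T cells, 6 for NK cells or 4 for erythroid cells passed in limma (0, 1 and 0 at an unadjusted p under 0.05). Over all genes 9.76% rose and 8.47% fell, so counts of 2 in these short lists are not read as a shift in cell content. Other control probe sets differed between genotypes as well, each with no overlap of arrays and the same exact p of 0.1. Hybridization controls averaged 11.35 in wild type and 10.33 in the hypomorph, and 18S rRNA probe sets 9.43 and 8.76. The excess of 3′ over 5′ signal, a sign of RNA quality, was 0.97 and 0.74 for beta-actin and 0.54 and 0.39 for Gapdh. The part of the macrophage genes, of the spike-in and other control differences and of RNA quality in the results below was not tested. With the spike-in mean as a covariate, no gene of the 12393 passed in limma (1149 had an unadjusted p under 0.05), and the difference turned negative for Jun, Junb and Atf3.

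The promoters of the genes are shown for 4 members, taken from RefSeq on GRCm38.p6, where 8 of the 10 genes matched an entry. Each window runs from 250 bases before to 50 bases after the annotated start and is written 5′ to 3′ on the strand of the gene. Fos and Egr2 are shown as members of the 2 families that were higher in the hypomorph. Fosb and Fosl2 are shown because they hold the same EGR-type letters although Fosb was the gene with the largest difference and Fosl2 was lower. The windows are chr12:85473640-85473939 on the plus strand for Fos, chr7:19309996-19310295 on the minus strand for Fosb, chr5:32136222-32136521 on the plus strand for Fosl2 and chr10:67537619-67537918 on the plus strand for Egr2, 1 of its 5 windows in the table. Capitals mark every match, on either strand, to TATAAA (the TATA box), CCAAT (bound by NF-Y), TGACG (a cyclic AMP response element half-site), GCGGGGGCG (an EGR site) and the CArG box bound by serum response factor.
Fos: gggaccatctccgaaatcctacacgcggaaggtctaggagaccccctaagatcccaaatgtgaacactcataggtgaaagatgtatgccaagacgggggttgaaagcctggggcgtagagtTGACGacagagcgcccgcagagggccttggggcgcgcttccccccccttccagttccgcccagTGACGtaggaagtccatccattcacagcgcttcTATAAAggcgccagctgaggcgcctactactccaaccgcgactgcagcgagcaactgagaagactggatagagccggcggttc
Fosb: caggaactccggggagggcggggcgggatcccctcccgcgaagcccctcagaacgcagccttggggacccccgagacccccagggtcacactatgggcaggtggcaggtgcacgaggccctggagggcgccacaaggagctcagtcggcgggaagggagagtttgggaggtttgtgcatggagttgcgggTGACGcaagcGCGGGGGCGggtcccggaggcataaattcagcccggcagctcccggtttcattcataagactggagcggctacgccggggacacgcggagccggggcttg
Fosl2: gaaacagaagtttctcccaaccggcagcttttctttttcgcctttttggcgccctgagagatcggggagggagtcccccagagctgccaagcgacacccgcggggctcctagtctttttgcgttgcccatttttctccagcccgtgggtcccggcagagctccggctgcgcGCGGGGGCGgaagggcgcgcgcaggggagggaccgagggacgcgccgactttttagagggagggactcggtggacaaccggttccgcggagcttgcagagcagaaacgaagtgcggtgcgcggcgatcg
Egr2: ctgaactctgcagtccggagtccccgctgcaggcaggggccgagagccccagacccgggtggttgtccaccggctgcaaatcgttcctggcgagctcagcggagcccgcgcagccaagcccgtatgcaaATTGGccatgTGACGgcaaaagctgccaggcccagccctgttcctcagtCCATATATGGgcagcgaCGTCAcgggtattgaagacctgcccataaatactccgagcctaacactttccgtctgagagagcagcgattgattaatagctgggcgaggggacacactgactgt
In the Fos window TGACG lies at -129 to -125 and again at -66 to -62 from the start site, and TATAAA lies at -33 to -28. The EGR site lies at -50 to -42 in Fosb and at -79 to -71 in Fosl2, and in both it overlaps a GC box (GGGCGG, not capitalised). The CArG box of this Egr2 window lies at -72 to -63, between TGACG at -111 to -107 and the same letters on the reverse strand at -55 to -51.

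Letters were counted on both strands over the windows of 27025 genes, and the 8 members with a window were set beside them. A gene was counted if any of its windows matched, and the 8 members had 12 windows. The AP-1 site TGACTCA was in 0 of 8 members and in 5.95% of all genes, and the full element TGACGTCA in 0 of 8 and 2.03%. The half-site TGACG, a part of that element searched for after the first motifs were counted, was in 5 of 8 (Fos, Fosb, Junb, Atf3 and Egr2) and in 23.0% of all genes. The CArG box was in 1 of 8 (Egr2) and 1.81%. The EGR site GCGGGGGCG was in 2 of 8 and 3.31%, and GCGTGGGCG in 0 of 8 and 0.707%. The GC box GGGCGG was in 6 of 8 and 38.2%, CCAAT in 4 of 8 and 41.1%, and TATAAA in 2 of 8 (Fos and Junb) and 15.7%. The ETS site CCGGAAG was in 0 of 8 and 9.93%, and the heat shock element in 0 of 8 and 0.662%. A match is a run of letters and not a measured binding site, and a window without one says nothing about the factor. Of the 8 members with a window, all but Fosl2 were higher in the hypomorph, so nothing is read from the direction of the 5 that hold TGACG. Jun and Jund were higher as well and do not hold it.

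Fos, the founding FOS protein, had log2 values of 11.54, 12.29 and 12.11 on WT1, WT2 and WT3 and 13.46, 13.41 and 13.50 on HM1, HM2 and HM3. All 3 hypomorph arrays lay above all 3 wild-type arrays, and the hypomorph arrays were within 0.094 of each other. The difference was 1.47 (SE 0.19, 95% interval 1.04 to 1.91). Fosb, whose protein also pairs with JUN proteins, read 6.17, 7.51 and 7.73 in wild type against 9.70, 9.39 and 9.68 in the hypomorph. The lowest hypomorph array stood 1.66 above the highest wild-type array, the widest gap among the 10 genes. Its difference of 2.45 (SE 0.38, 95% interval 1.55 to 3.36) was also the largest of the 10. Fosl2 encodes FRA-2, a FOS protein without the strong activation domain of FOS. It read 6.04, 6.10 and 6.45 in wild type against 5.93, 5.88 and 5.92 in the hypomorph, so that the groups were separated by a small step in the opposite direction. The Fosl2 difference was -0.28 (SE 0.12, 95% interval -0.56 to -0.0062) and did not pass the threshold. The FOS family held both the largest positive and the only separated negative difference of the set.

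Jun, the central partner in AP-1 dimers, had values of 8.38, 10.27 and 10.43 on WT1, WT2 and WT3 and of 11.36, 11.13 and 11.16 on HM1, HM2 and HM3. The groups did not overlap, but WT1 lay 1.97 below the mean of WT2 and WT3, more than the 0.87 by which the hypomorph mean exceeded WT2 and WT3. The difference over all arrays was 1.52 (SE 0.51, 95% interval 0.33 to 2.72), which did not pass. Without WT1 the Jun ratio was 1.82-fold and passed. A second Jun probe set read 7.37, 8.92 and 9.03 against 9.62, 9.47 and 9.48, with the same low WT1, and differed by 1.08 (SE 0.41).

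Junb, a JUN protein that often counters JUN, read 7.87, 8.73 and 8.70 in wild type against 9.59, 9.47 and 9.64 in the hypomorph, again with WT1 apart and no overlap. Its difference was 1.13 (SE 0.23, 95% interval 0.60 to 1.67). Jund, the JUN protein that is made more constantly than the others, read 9.36, 9.60 and 9.43 against 10.26, 10.29 and 10.28. All hypomorph arrays were higher, within 0.028 of each other, and WT1 was only 0.16 below the other wild-type arrays. The Jund difference was 0.81 (SE 0.085, 95% interval 0.61 to 1.01), the smallest of the 8 positive differences and the one with the smallest SE of the 10 genes. Its hypomorph SD of 0.015 was above that of only 2.53% of all genes.

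Atf3 encodes a stress-induced bZIP factor that pairs with JUN proteins and can repress inflammatory genes. It read 8.39, 9.89 and 9.78 on the wild-type arrays and 11.20, 10.93 and 11.30 on the hypomorph arrays. WT1 lay 1.45 below the mean of WT2 and WT3, and the hypomorph mean lay 1.31 above it, so the step from WT1 to the other wild-type arrays was larger than the step from those to the hypomorph. The Atf3 difference was 1.79 (SE 0.38, 95% interval 0.88 to 2.69), and the ratio without WT1 was 2.47-fold.

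Egr1, the EGR factor most used as a marker of recent stimulation, read 9.77, 10.91 and 10.36 in wild type and 11.71, 11.61 and 11.77 in the hypomorph. The groups did not overlap, and WT2 and WT3 were 0.55 apart, the widest separation of these 2 arrays among the 10 genes. The difference was 1.35 (SE 0.26, 95% interval 0.73 to 1.97). Egr2, also known as Krox20 and involved in the tolerance and alternative activation of immune cells, read 7.19, 7.90 and 8.01 against 9.63, 9.24 and 9.38. Its second probe set read 7.23, 7.62 and 7.57 against 9.21, 8.91 and 8.97, and on both the 3 hypomorph arrays lay above the 3 wild-type arrays. The Egr2 differences were 1.71 (SE 0.22) and 1.56 (SE 0.13). Egr3, a close relative that is induced by antigen receptor signals in lymphocytes, read 5.34, 5.43 and 5.62 against 5.30, 5.47 and 5.60. The 2 groups covered nearly the same range, and the difference of -0.0037 (SE 0.11, 95% interval -0.27 to 0.26), which was 0.015 after quantile normalization, had no direction. The interval leaves room for a fall of up to 0.27 or a rise of up to 0.26.

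**Figure D2:**
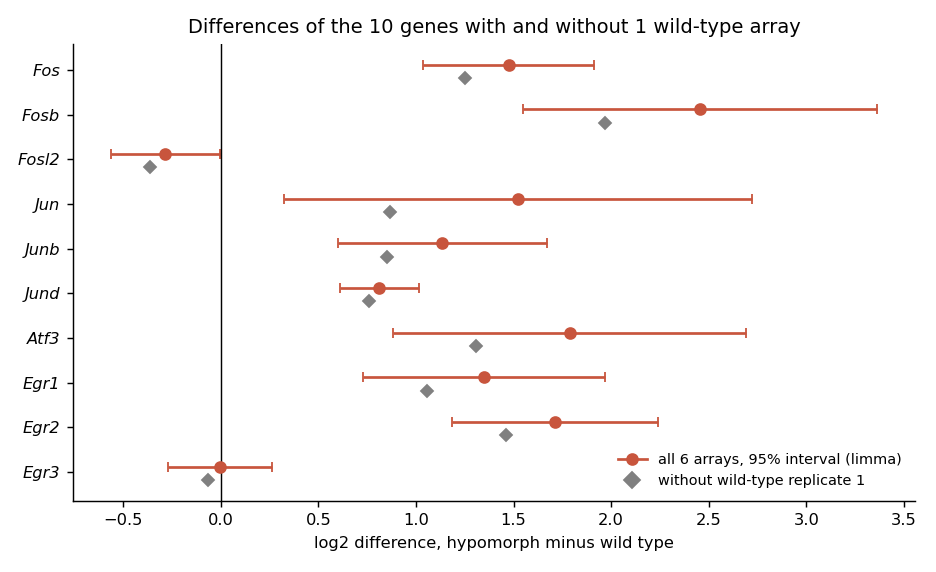
Difference in log2 expression, hypomorph minus wild type (x axis, log2 units), for each of the 10 genes (y axis). Red circles with bars give the value over all 6 arrays with its 95% interval from limma, and grey diamonds give the hypomorph mean minus the mean of WT2 and WT3. Jun moves most when WT1 is left out, from 1.52 to 0.87, and Jund least among the 8 higher genes, from 0.81 to 0.76.

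The plot of differences with and without WT1 shows how far the size of the differences depended on 1 wild-type array. Without WT1 the ratios were 3.92-fold for Fosb, 2.75-fold for Egr2, 2.47-fold for Atf3, 2.38-fold for Fos, 2.08-fold for Egr1, 1.82-fold for Jun, 1.81-fold for Junb and 1.69-fold for Jund. Fosb kept the first place, and Jun moved from the fourth place to the sixth. The count past the threshold was 8 without WT1, with Jun added, beside 8.92% of all genes upward. It was 4 without any single hypomorph array, beside 4.88%, 4.91% and 4.44% of all genes without HM1, HM2 and HM3, when Junb, Atf3 and Egr1 no longer passed and Fos, Fosb, Jund and Egr2 passed each time. When a change of at least 1.5-fold was tested, 0 of the 10 passed, and the limma count over all genes was 123 upward and 4 downward (504 at an unadjusted p under 0.05).

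The sizes of the differences were compared gene by gene by subtracting one gene's log2 value from another's on each array. Of the 9 neighbouring pairs in the order of differences, 6 overlapped between genotypes, so the order from Atf3 through Egr2, Jun, Fos, Egr1 and Junb to Jund was not separated at its steps. Fosb stood apart from Atf3, the next gene: the Fosb value minus the Atf3 value was -2.22, -2.38 and -2.06 in wild type and -1.51, -1.54 and -1.61 in the hypomorph, a shift of 0.67. Jund stood apart from Egr3, with a shift of 0.82, and Egr3 from Fosl2, with a shift of 0.28. Among all 28 pairs of the 8 higher genes, 14 did not overlap. These shifts compare changes and not levels, since values of different probe sets are not on 1 scale.

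The 10 genes shared their lowest array in wild type. WT1 was the lowest of the 3 wild-type arrays for 10 of 10 genes, beside 34.3% of all genes, and for 9 of 10 after quantile normalization. The median amount by which WT1 lay below the mean of WT2 and WT3 was 0.80 for the 10 genes and -0.026 for all genes. WT2 and WT3 differed by a median of 0.17 for the 10 genes and 0.13 for all genes. HM2 was the lowest hypomorph array for 8 of 10 genes, beside 36.5% of all genes, but by small steps. The median SD was 0.47 between wild-type arrays and 0.11 between hypomorph arrays, beside 0.14 and 0.089 for all genes. The wild-type SD exceeded the hypomorph SD for 9 of the 10, all but Egr3, and for 70.6% of all genes. Without WT1 the median wild-type SD of the 10 genes was 0.12. Jun had a wild-type SD of 1.14, above that of 99.7% of all genes, and Jund one of 0.12, above 42.3%. The sample title of WT1 carries another leading number than the other 5, and that of WT3 names another version of the array than the other 5. What the leading number stands for is not given in the labels. None of the titles writes the array as MOE430A. The part of these control signals and title differences in these values was not tested.

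**Figure D3:**
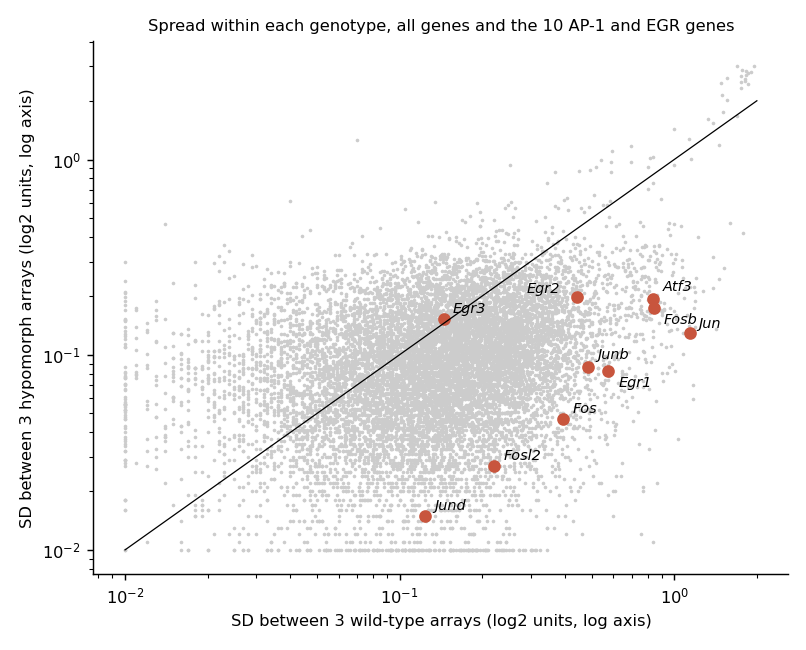
SD between the 3 wild-type arrays (x axis, log2 units on a log axis) against SD between the 3 hypomorph arrays (y axis, log2 units on a log axis). Grey points are all genes, with SDs under 0.01 drawn at 0.01, red points are the 10 AP-1 and EGR genes, and the line marks equal SDs. All red points but Egr3 lie below the line, and Jun, Fosb and Atf3 lie farthest to the right, with wild-type SDs of 1.14, 0.85 and 0.84.

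The other bZIP genes include further partners and competitors of the AP-1 proteins. Of 19 measured, 3 rose and 0 fell in limma, beside 9.76% and 8.47% of all genes, so nothing is read from these counts. At an unadjusted p under 0.05, 6 were up and 1 down, beside 4210 of all 12393 genes in either direction. The median difference of the 19 was 0.13, beside -0.053 for all genes. Atf6, a membrane-bound sensor of endoplasmic reticulum stress, rose by 0.43 (SE 0.077, limma adjusted p = 0.01291). Maff, a small MAF protein, rose by 0.99 (SE 0.18, adjusted p = 0.0133), from 5.89, 6.47 and 6.51 to 7.46, 7.14 and 7.25. Creb1, the cyclic AMP response factor that binds the promoters of several immediate-early genes, rose by 0.36 (SE 0.096, adjusted p = 0.04454), but as the mean of its probe sets differed by 0.13 (adjusted p = 0.4317). Of the remaining FOS and JUN relatives, Fosl1 (FRA-1) differed by 0.26 (SE 0.17, adjusted p = 0.3301), with overlapping groups. Its values of 2.79 to 3.52 lay below the lower quartile of all values on each array, so its signal was weak. Jdp2, a JUN-binding repressor, differed by 0.51 (SE 0.17, adjusted p = 0.0787), and Batf and Batf2, which pair with JUN proteins and IRF factors, by -0.19 (SE 0.12) and 0.059 (SE 0.092). The bZIP count depended on single arrays: it was 0 upward without HM1, 1 (Maff) without HM2, 0 without HM3 and 5 without WT2, and 1 fell without WT1. Creb1 also missed the threshold without WT1, without WT2 and with array weights. The median difference of the list was 0.070 without WT1.

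None of the 3 other EGR-related genes passed in limma at an adjusted p of 0.05. Nab2, a corepressor that binds EGR proteins and is itself an EGR target, read 5.41, 5.30 and 5.61 in wild type and 5.66, 5.62 and 5.79 in the hypomorph. Its groups were just separated, and the difference of 0.25 (SE 0.10) had an adjusted p of 0.1338 and an unadjusted p under 0.05. Nab1, the other corepressor, differed by -0.082 (SE 0.12) and Egr4 by 0.033 (SE 0.13), both with overlapping groups. The median of the 3 genes was 0.033, and -0.014 without WT1. Egr3 and Egr4 overlapped between genotypes, while Egr1 and Egr2 did not. The values of Egr3 and Egr4 lay below the median of all values on each array (5.66 to 5.72), and those of Egr1 and Egr2 above it. The part of low signal in the overlap was not tested.

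The kinases and factors that act upstream of these genes were tested in the same limma fit. Of 22 measured, 3 rose and 1 fell, beside 9.76% and 8.47% of all genes, so nothing is read from these counts. At an unadjusted p under 0.05, 8 were up and 3 down, beside 4210 of all 12393 genes in either direction. The median difference was 0.038. Mapk8, which encodes JNK1, the kinase that phosphorylates JUN, rose from 7.08, 7.30 and 7.46 to 8.18, 8.17 and 8.18. This was a difference of 0.90 (SE 0.11, limma adjusted p = 0.003063), and of 0.47 as the mean of its probe sets. Mapkapk2, a kinase downstream of p38, rose by 0.41 (SE 0.066, adjusted p = 0.009231), and Elk1, a cofactor of serum response factor, rose by 0.30 (SE 0.076, adjusted p = 0.03766). Mapk7, which encodes ERK5, fell by 0.35 (SE 0.082, adjusted p = 0.02846). Srf, the serum response factor itself, differed by 0.20 (SE 0.073, adjusted p = 0.105), but by -0.013 as the mean of its probe sets. Elk3, Elk4 and Mrtfa, further partners of SRF, differed by -0.11, -0.21 and -0.11 with adjusted p of 0.5296, 0.1137 and 0.5654. Elk1 did not pass without any single one of the 6 arrays (adjusted p 0.05517 to 0.1261), nor as the mean of its probe sets (0.19, adjusted p = 0.1954) or with trend and robust eBayes. Mapkapk2 did not pass without HM3 (adjusted p = 0.05265), which left 1 rise. The fall count was 0 without HM1, HM2, HM3 or WT3, each of which ended the call of Mapk7, and 2 without WT1.

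Known targets of AP-1 and EGR factors rose in part. Of 22 measured, 8 rose and 0 fell in limma, beside 9.76% and 8.47% of all genes. At an unadjusted p under 0.05, 10 were up and 2 down, beside 4210 of all 12393 genes in either direction. The median difference was 0.51. Mmp13, which encodes a collagenase and is a classical AP-1 target, read 3.41, 3.39 and 3.74 in wild type and 5.54, 6.06 and 6.62 in the hypomorph. It rose by 2.56 (SE 0.26, limma adjusted p = 0.001917), and its groups were far apart. The wild-type values of Mmp13 lay near the lower quartile of all values on those arrays (3.74, 3.62 and 3.66), where signal is weak. Hbegf, an EGF receptor ligand, rose by 1.30 (SE 0.13, adjusted p = 0.001811). Ccl2, a monocyte chemoattractant, rose from 5.06, 4.97 and 5.04 to 5.89, 5.88 and 6.02, a difference of 0.91 (SE 0.078, adjusted p = 0.001373). WT1 was the lowest wild-type array for 15 of the 22 targets, by a median of 0.26, but not for Ccl2 and Mmp13. Cd44, a hyaluronan receptor, rose by 0.88 (SE 0.095), Odc1, the first enzyme of polyamine synthesis, by 1.03 (SE 0.17) and Cdkn1a, the cell cycle inhibitor p21, by 0.80 (SE 0.12), with adjusted p of 0.002261, 0.009951 and 0.006116. The proteases Mmp3 and Mmp9 differed by -0.028 (SE 0.16) and -0.18 (SE 0.15) with overlapping groups, and Mmp3 changed sign after quantile normalization (0.053). Mmp3 lay below the lower quartile of all values on each array. Plau, the urokinase gene, differed by 0.56 (SE 0.18, adjusted p = 0.07197). Ptgs2, which encodes the inducible prostaglandin synthase, read 9.21, 10.86 and 10.71 against 11.13, 11.03 and 10.99, with WT1 well below the other 5 arrays and a difference of 0.79 (SE 0.40, adjusted p = 0.2184). Without WT1 the median difference of the targets was 0.28. A single target fell without WT1, and also without WT2. The macrophage markers rose on the same arrays, and their part in the target genes was not tested.

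The immediate-early genes outside the AP-1 and EGR families rose in large part. Of 17 measured, 12 rose and 0 fell in limma, beside 9.76% and 8.47% of all genes. This list, like the target and heat shock lists, was chosen with earlier results of these data known, so its counts lend no support. At an unadjusted p under 0.05, 14 were up and 1 down, beside 4210 of all 12393 genes in either direction. The median difference was 1.21. Zfp36, whose protein destabilises cytokine mRNAs, read 9.22, 10.31 and 10.22 in wild type and 11.78, 11.71 and 11.79 in the hypomorph, a difference of 1.84 (SE 0.27, limma adjusted p = 0.006832). Klf4 and Klf6, zinc finger factors, rose by 1.71 (SE 0.16, adjusted p = 0.001646) and 1.49 (SE 0.23, adjusted p = 0.007794). Dusp6, a phosphatase that turns off ERK, rose by 1.26 (SE 0.17, adjusted p = 0.005082), and Ier2 and Ier5 rose by 1.14 (SE 0.15, adjusted p = 0.004807) and 0.998 (SE 0.11, adjusted p = 0.002833). The orphan nuclear receptor genes Nr4a1 and Nr4a3 differed by 0.77 (SE 0.25, adjusted p = 0.07858) and -0.20 (SE 0.16, adjusted p = 0.4175), the latter by 0.032 as the mean of its probe sets. Dusp2, another MAP kinase phosphatase, differed by 0.58 (SE 0.20, adjusted p = 0.09097). Gadd45b, a stress gene upstream of p38 and JNK, ran the other way, with 9.54, 10.22 and 10.16 against 9.49, 9.46 and 9.31 and a difference of -0.55 (SE 0.18, adjusted p = 0.07984). One of these genes fell without WT1. As for the AP-1 and EGR genes, WT1 was the lowest wild-type array for 16 of the 17 genes, by a median of 0.72.

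Heat shock genes, which are also induced quickly by stress but through HSF1, went the opposite way. Of 10 measured, 0 rose and 9 fell in limma, beside 9.76% and 8.47% of all genes. The counts were the same 0 and 9 at an unadjusted p under 0.05, beside 4210 of all 12393 genes in either direction. The median difference was -1.94. Dnajb1, a co-chaperone, read 10.62, 12.09 and 12.22 in wild type and 9.02, 8.66 and 8.43 in the hypomorph, and fell by 2.93 (SE 0.41, limma adjusted p = 0.005806). Hspa1a and Hspa1b, near-identical genes for inducible HSP70 whose probe sets may share signal, fell by 2.60 (SE 0.36, adjusted p = 0.005549) and 1.82 (SE 0.28, adjusted p = 0.007297). Hspb1, which encodes HSP27, fell by 2.53 (SE 0.52, adjusted p = 0.01923), Hsph1 by 2.56 (SE 0.57, adjusted p = 0.02496) and Hspe1, a mitochondrial co-chaperonin, by 0.70 (SE 0.12, adjusted p = 0.01217). Hspa8, the constitutive HSC70 gene, differed by -0.13 (SE 0.094, adjusted p = 0.3885), with overlapping groups. Without HM1, HM2, HM3 or WT3 the count of falls was 4, 3, 3 and 5. Hspb1 and Hsph1 missed the threshold without any single hypomorph array and with trend and robust eBayes, Hsph1 also without WT3, and Hspe1 without HM2 or HM3. Within wild type the heat shock genes followed the AP-1 and EGR genes, with WT1 the lowest array for 10 of 10 genes by a median of 0.93, whereas between genotypes their direction was opposite.

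**Figure D4:**
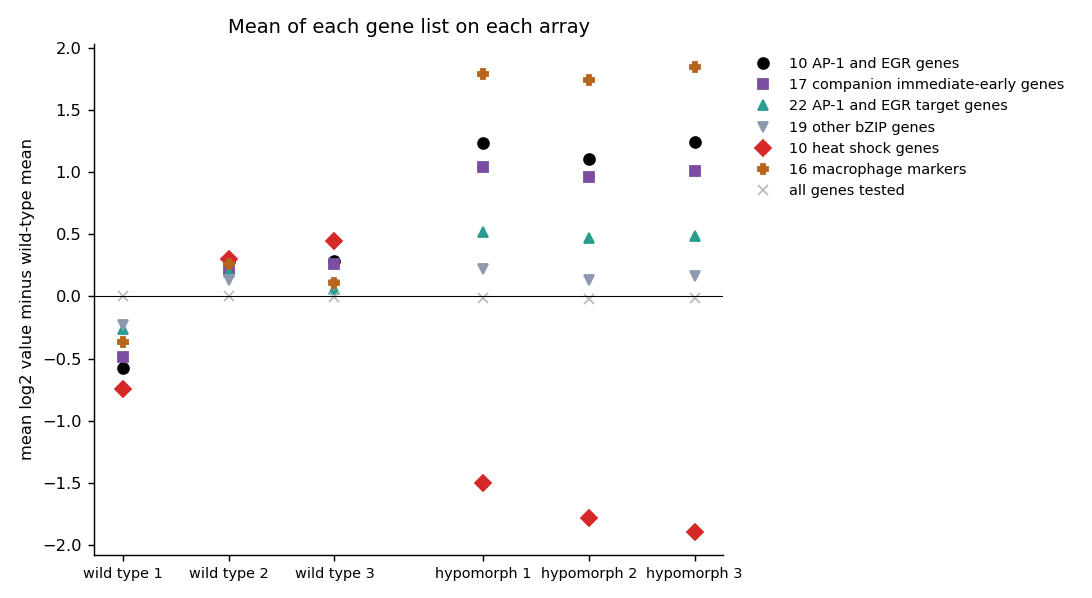
Mean over the genes of each list of the log2 value minus the gene's wild-type mean (y axis, log2 units) on each of the 6 arrays (x axis), with 1 marker per list. On WT1 the AP-1 and EGR genes (-0.57), their companions (-0.48), the macrophage markers (-0.37) and the heat shock genes (-0.75) all lie below 0, and on the hypomorph arrays the heat shock genes alone lie far below it.

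The plot of list means by array sets these groups side by side. Relative to the wild-type mean, the 10 AP-1 and EGR genes averaged -0.57, 0.29 and 0.29 on WT1, WT2 and WT3 and 1.24, 1.10 and 1.25 on HM1, HM2 and HM3. The companion genes averaged -0.48, 0.22 and 0.26, and then 1.04, 0.96 and 1.01. The heat shock genes averaged -0.75, 0.30 and 0.45, and then -1.5, -1.79 and -1.89. The macrophage markers averaged -0.37, 0.26 and 0.11, and then 1.79, 1.75 and 1.85, with WT1 the lowest wild-type array for 15 of 16. The mean of the dendritic cell markers stayed between -0.061 and 0.077 on all 6 arrays, although single markers that passed went both ways, from Zbtb46 (-0.63) to Ccr7 (1.40), and WT1 was the lowest wild-type array for 1 of 10. WT1 was also the lowest wild-type array for 5 of 6 NK cell and 5 of 6 stroma and endothelium markers. The same held for 4 of 5 B cell and 3 of 5 T cell markers. It held for 3 of 7 neutrophil, 0 of 5 platelet and 0 of 4 erythroid markers. A low WT1 was thus not limited to immediate-early, heat shock and macrophage genes. The part of macrophage content in the level of the AP-1 and EGR genes was not tested.

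Genes outside the 10 were ranked by the root mean square difference, over the 6 arrays, between their profile around the wild-type mean and that of the AP-1 and EGR genes. Nearest to the mean profile of the 10 were Akr1c13 (0.079), Dusp1 (0.084), Rgs1 (0.086), Cd83 (0.089) and Ppp1r15a (0.090), of which Dusp1 and Ppp1r15a are in the list of companion immediate-early genes. Dusp1 read 11.29, 12.08 and 11.89 in wild type and 12.97, 12.87 and 13.07 in the hypomorph. Nearest to Fos were Slc1a3 (0.034), Vcam1 (0.069) and Ly96 (0.088), of which Vcam1 is in the list of macrophage markers. Nearest to Egr1 were Ubd (0.13), Abca1 (0.14) and Dusp6 (0.15). Among the 10 themselves, Junb lay closest to their mean profile, at 0.046, and Fosl2 farthest, at 1.07. These distances over 6 arrays of 2 groups are a description and carry no test.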

How the data were processed

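Expression was measured on 6 arrays, 3 per genotype. The deposited log2 values, 1 per probe set and array, were made by the authors with Affymetrix Power Tools, per the submitters' processing notes; the version, background correction and summarization were not given in the sources used here. Both the log base and a normalization between arrays were inferred from the range (1.96 to 14.3) and the close medians. Genes were named from the platform annotation, only probe sets naming 1 gene were tested, and the probe set with the highest mean stood for a gene. Of 22690 probe sets, 1 had no value, 64 were controls, 691 named several genes and 1555 none. Two-sided limma tests (version 3.58.1, R 4.3.3; functions lmFit and eBayes, no covariate, no filter on dim genes) compared the genotypes, adjusted over all 12393 genes by Benjamini-Hochberg at 0.05, after the scripts were tested on simulated data. Depth does not apply to arrays, whose number limits the precision.

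The members and the gene lists were chosen with earlier results of these data known. Named genes are all 10 members, up to 6 genes past the threshold and up to 4 others of each list, the 3 EGR-related genes, Atg16l1 and the nearest profiles; Itgax, Zbtb46 and Ccr7 were named in addition after their values were seen. The lists held 22 bZIP, 31 upstream, 24 target, 19 companion and 10 heat shock genes, of which 19, 22, 22, 17 and 10 had a single-gene probe set. As alternatives, probe sets of a gene were averaged or tested one by one, and fits were repeated with 2 filters on level, quantile normalization, median centring, trend and robust eBayes, array weights, the replicate block, a spike-in covariate, a 1.5-fold minimum, and each array left out in turn. The TGACG motif and the wild-type spread without WT1 were added after seeing the data. Promoter windows were searched with Python 3.11.15, and matplotlib 3.10.9 drew the plots.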

Additional observations from a re-analysis of the deposited data

How the results depend on the processing

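With 3 arrays per group the precision is low, the groups differ in spike-in signal by more than any spread within a group, and the spike-in covariate raises the standard error by a median of 2.96 times, so genotype and covariate cannot be told apart. That fit gave 0 rises for the AP-1 and EGR, other bZIP, upstream, target and companion genes and 0 falls for the upstream and heat shock genes. Median differences under it were 0.066 for the AP-1 and EGR genes, -0.16 for other bZIP genes, -0.49 for the EGR-related genes, 0.13 for targets, 0.098 for companions and -2.98 for heat shock genes. Signs turned under it for Jun (-1.41), Junb (-0.072), Atf3 (-0.21), Fosl1 (-0.61), Egr4 (-0.49), Nab2 (-0.12), Mrtfa (0.57), Odc1 (-0.071), Mmp3 (0.92), Mmp9 (0.52), Plau (-0.51), Ptgs2 (-1.33), Nr4a1 (-0.60), Dusp2 (-0.72), Rgs1 (-0.020), Cd83 (-0.069) and Ppp1r15a (-0.23). The cause was not tested.

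Testing a change of at least 1.5-fold gave 0 rises for AP-1 and EGR, bZIP and upstream genes, 0 upstream falls, 2 target rises, 1 companion rise and 2 heat shock falls. The filter at the median level, which tests fewer genes and drops Fosl2 and Egr3, gave 7 upstream rises, 3 upstream falls, 5 target rises and 1 bZIP fall, and the lower quartile filter 2 upstream falls. Quantile normalization gave 3 upstream falls and 1 companion fall, with Egr3 at 0.015 and Mmp3 at 0.053. Trend and robust eBayes gave 1 bZIP and 2 upstream falls, and Atf3 no longer passed. Array weights gave 1 fall among the AP-1 and EGR genes (Fosl2), 2 upstream, 2 target and 1 companion falls, with Egr4 at -0.074 and Mmp3 at 0.064. The mean of probe sets gave 2 upstream falls, with Srf at -0.013 and Nr4a3 at 0.032. On the sense strand alone CCAAT was in 2 of 8 members.

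Same-numbered arrays of the 2 genotypes deviated with correlations of 0.15, 0.011 and 0.11, so the numbers were not taken as pairs. With the replicate block 7 AP-1 and EGR genes passed, as without it, 1 bZIP gene rose, 0 upstream genes fell, and over all genes 753 rose and 478 fell, against 1210 and 1050.

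Leaving out 1 array at a time gave 4 to 8 AP-1 and EGR rises, 0 to 5 bZIP rises, 0 to 1 bZIP falls, 1 to 3 upstream rises, 0 to 2 upstream falls, 0 to 1 target falls, 0 to 1 companion falls and 3 to 9 heat shock falls. Egr3 ran from -0.077 to 0.076, Egr4 from -0.052 to 0.17, Mmp3 from -0.15 to 0.11 and Mrtfa from -0.19 to 0.018. The median wild-type SD of the AP-1 and EGR genes was 0.12 without WT1. Counting each of the 10 genes under each alternative, 138 values kept direction and side of the threshold, 22 lost it, 2 gained it and 6 turned sign.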
